A study of Mus musculus with 12 samples.

Results

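Total RNA was compared with newly made RNA in mouse embryonic stem cells (ESCs) that lack Dgcr8, a protein needed to process primary microRNA transcripts, so that these cells make no canonical microRNAs. The 6 libraries were all those labelled DGCR8 KO, of 12 in the series: 3 of total RNA and 3 of RNA labelled with 4-thiouridine (4sU), a uridine analogue that cells build into new transcripts. The other 6 were total and 4sU libraries of wild-type ESCs, used here only for differences. All cells, of both genotypes, were kept in Knockout DMEM with 15% serum, LIF and the inhibitors PD0325901 and CHIR99021 (2i), and all were given 500 uM 4sU for 30 min, including those behind the total RNA libraries. The KO cells were a single line, so that what belongs to the line and what belongs to the loss of Dgcr8 cannot be told apart. Nothing in the labels says that replicates were separate cultures, and p-values then measure only the spread between these samples, which may be technical.

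A gene was kept where at least 3 of the 6 libraries reached 3 CPM, the count scaled to the same library size in every library, which left 13176 of 51467 genes. Depth ran from 4775267 to 4998675 counts in the 4sU libraries and from 7184551 to 9215024 in the total libraries, so that 3 CPM stood for between 14.3 and 27.6 counts. Replicates of 1 kind had Spearman correlations across genes of 0.988 to 0.997, and every pair differed by more than sampling noise. All 8 ESC markers were above the minimum, with a summed level of 5422 to 5542 CPM in total RNA. Of 9 fibroblast markers, which would mark feeder cells, only Pdgfra reached it, their sum was 4.15 to 6.32 CPM, and the defining genes Col1a2, Col3a1, Postn, Lum and Dcn were at 0 in every total library. Some lineage markers were present: Otx2, Dnmt3b and Zic2 of the primed epiblast list, Sox1 and Nes of the neuroectoderm list and Tfap2c of the trophectoderm list reached 3 CPM, whereas Fgf5 was at 0 in total RNA. In such bulk samples fewer cells of a type and less RNA per cell cannot be told apart.

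How much of an RNA a cell holds is set by how fast it is made and how fast it is removed. A short 4sU pulse marks RNA made during the pulse, and the ratio of total to 4sU signal therefore ranks transcripts by how long they persist, although processing of unspliced RNA also enters it. Genes of signalling responses are known for mRNAs that turn over fast, often with AU-rich elements in the 3′ untranslated region (UTR), whereas mRNAs for metabolic enzymes are known to be long lived. MicroRNAs add to this by pairing through their seed with sites in 3′ UTRs. In ESCs the dominant family is the ESC-specific cell cycle (ESCC) family of the miR-290 and miR-302 clusters, whose members share a seed.

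The mature ESCC microRNAs below are not made in Dgcr8-null cells, which do not process their primary transcripts. They are shown because the seed in capitals (bases 2 to 8) defines the sites read in this comparison. The sequences are those of RefSeq (GRCm38.p6), on the plus strand at chr7:3218968-3218989, chr7:3220691-3220712, chr7:3220815-3220837 and chr3:127545275-127545297 in that order.
miR-291a-3p: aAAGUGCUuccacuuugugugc
miR-294-3p: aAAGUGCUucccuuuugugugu
miR-295-3p: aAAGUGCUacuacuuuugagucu
miR-302b-3p: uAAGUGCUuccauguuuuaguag

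The 3′ UTR sites below carry matches to that seed and are shown because these genes are generally named as ESCC targets and their ratios are given further on. They lie in the 3′ UTRs (mm10) of Casp2 at chr6:42281277-42281305 (plus strand), Rbl2 at chr8:91123816-91123844 (plus), Lats2 at chr14:57691075-57691103 (minus), Lefty1 at chr1:180938203-180938231 (plus) and Cdkn1a at chr17:29099817-29099845 (plus). Capitals mark the match to AGCACTT or GCACTTA, or to both where they overlap, read on the transcript strand only.
Casp2: ggcttctgcatGCACTTAcactgtacttg
Rbl2: gtatttttcaataaAGCACTTAtaaatta
Lats2: gtatggaaagAGCACTTAttttgtggata
Lefty1: ctgtatgcgaAGCACTTAcatgtatagat
Cdkn1a: cagacctgaatAGCACTTtggaaaaatga

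A second set shows the AU-rich heptamer TATTTAT, in capitals, in the 3′ UTRs of genes at the short-lived end of the ratio. They are at chr12:85477103-85477131 (plus) in Fos, chr7:28376966-28376994 (minus) in Zfp36, chr17:35822481-35822509 (plus) in Ier3 and chr3:145647093-145647121 (minus) in Ccn1.
Fos: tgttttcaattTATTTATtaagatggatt
Zfp36: agtgggcccttTATTTATgacgactttat
Ier3: tgtctaattaaTATTTATgTATTTATgta
Ccn1: gaatgttttttTATTTATcaaagtgtagc

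Dgcr8 itself (chr16:18253948-18289249, minus strand) was still transcribed in the libraries labelled DGCR8 KO. On the scale of all 12 libraries its level was 78.4 ± 7.88 CPM in KO 4sU and 111.7 ± 5.75 CPM in wild-type 4sU libraries (SD, n = 3 each). In total RNA it was 33.3 ± 1.09 CPM in KO and 101.6 ± 9.30 CPM in wild-type libraries (SD, n = 3 each). The KO total libraries lay below all others, and within KO the log2 total/4sU ratio was -1.27 (SE 0.0852, limma adjusted p = 8.26e-13). Of the 50-base windows of its transcripts, 26.3% also occur in another gene's transcripts, and reads were mapped uniquely, so its level may be under-counted in both kinds of library.

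Most genes had a ratio that differed from the scaling centre by more than the spread between libraries. The log2 total/4sU ratio was fitted with limma, and 11223 of 13176 genes (85.2%) passed an adjusted p of 0.05. With a log2 change beyond 1 required as well, 5893 genes (44.7%) were called: 2454 (18.6%) higher in total RNA, here termed stable, and 3439 (26.1%) lower, here termed short lived. The 3 total libraries did not overlap the 3 4sU libraries in 11286 genes (85.7%). The median gene had a log2 ratio of 0.01 by construction of the scaling, since no usable spike-in fixed an absolute scale, and the split moves with it: 41.6% of calls were higher in total RNA with TMM scaling and 30.2% with upper-quartile scaling. The filter also let in genes seen in a single kind of library. No total library reached 3 CPM for 1498 genes, of which 1447 were called lower and 855 were long noncoding RNAs (lncRNAs), and no 4sU library did for 108 genes, of which 97 were called higher. Among the 10841 genes at 3 CPM in all 6 libraries, 3964 (36.6%) were called.

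The middle 50% of genes lay within a 3.63-fold span of total/4sU, and 98% lay within a 77.8-fold span. Computed for each same-numbered total and 4sU library, these ranges were 3.56 ± 0.083-fold and 63.4 ± 2.57-fold (SD, n = 3). For genes at 3 CPM in all 6 libraries they narrowed to 2.72-fold and 36.7-fold. Over 12366 genes that passed the same rule in both genotypes, the middle range was 3.40 ± 0.077-fold in KO and 3.33 ± 0.036-fold in wild-type ESCs (SD over 3 libraries each), and the permutation test, exact and two-sided, gave p = 0.2, where 0.1 is the smallest that 3 against 3 allow. The order of genes was close in both, with a Spearman correlation of 0.958 across genes, which share library chemistry and are not independent.

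**Figure D1:**
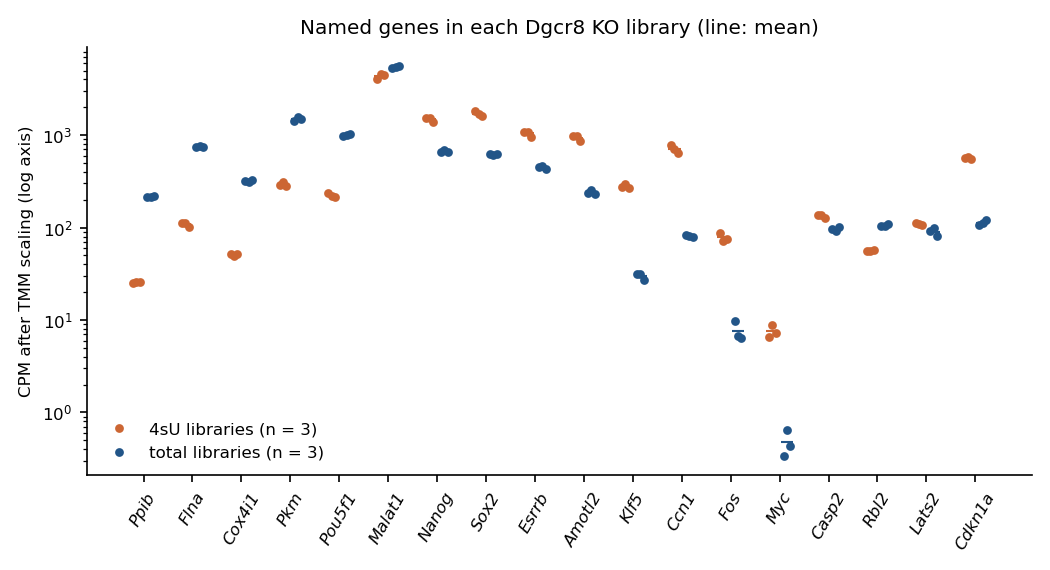
CPM after TMM scaling (log axis) of 18 named genes in each of the 3 4sU and 3 total Dgcr8 KO libraries; points are libraries and lines their means. Total libraries lie above the 4sU libraries for Ppib, Flna, Cox4i1, Pkm, Pou5f1, Malat1 and Rbl2 and below them for the other 11 genes.

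The gene with the highest ratio among protein-coding genes at 3 CPM in every library was Ppib, a peptidyl-prolyl isomerase of the endoplasmic reticulum (chr9:66060231-66066623, plus strand). It had 24.9, 25.6 and 25.9 CPM in the 4sU libraries and 215.5, 215.7 and 217.8 CPM in the total libraries, a log2 ratio of 3.08 (SE 0.0851, limma adjusted p = 3.06e-20). Every total library lay above every 4sU library, although 53.4% of the windows of Ppib are shared with other genes. Flna, the actin cross-linker filamin A (chrX:74223461-74249820, minus strand), had 112.4, 111.5 and 102.1 CPM in 4sU and 748.0, 759.1 and 748.9 CPM in total RNA, a log2 ratio of 2.79 (SE 0.0545). None of its windows was shared. Also among the 8 highest protein-coding genes at the minimum in every library were Hprt of purine salvage (2.79), Ephx2, an epoxide hydrolase (2.74), Igfbp2, which binds insulin-like growth factors (2.70), Taldo1 of the pentose phosphate pathway (2.66) and Cox4i1 of respiratory complex IV (2.65), all as log2 total/4sU. Neither kind of library overlapped the other for any of these genes, as was the rule for choosing them.

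Most glycolysis genes were called higher in total RNA. Of 19 tested, 13 were called higher (68.4%, against 18.6% of all genes) and 1 lower (5.26%, against 26.1%), with a median log2 ratio of 1.61 against 0.01 for all genes. Pkm, pyruvate kinase, had 287.9, 310.2 and 278.3 CPM in 4sU and 1433, 1573 and 1500 CPM in total RNA (log2 ratio 2.36, SE 0.0497), with no overlap. The phosphofructokinase genes Pfkl (2.23), Pfkp (2.03) and Pfkm (2.02), which commit sugar to glycolysis, were also called. The exception was Gapdh at -3.32, with 35.6, 44.6 and 27.7 CPM in 4sU and 3.73, 3.11 and 3.62 CPM in total RNA. For Gapdh 90.4% of the windows are shared with other genes, so its level and ratio are uncertain. The 12 glycolysis genes with under 20% shared windows had a median of 1.80, and 9 were called higher.

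Nuclear genes of oxidative phosphorylation were mostly called higher too, and differences between the complexes were not tested. Of 85 tested, 59 were called higher (69.4%) and 6 lower (7.06%), with a median of 1.40. Complex I (30 higher and 1 lower of 44, median 1.34), complex II (3 higher of 4, 1.81), complex III (6 higher and 1 lower of 8, 1.37), complex IV (11 higher and 2 lower of 13, 1.44) and the ATP synthase (9 higher and 2 lower of 16, 1.27) all had medians above 1. Cox4i1 (chr8:120668222-120674207, plus strand) had 51.6, 49.3 and 51.7 CPM in 4sU and 319.5, 312.2 and 329.4 CPM in total RNA, without overlap. Those called lower were Cox7c (-3.31), Atp5g2 (-3.21), Atp5g1 (-1.81), Cox6b2 (-1.43), Uqcrq (-1.39) and Ndufab1 (-1.27), and 52.95% of the windows of Cox7c are shared. Over the 69 genes with under 20% shared windows, 47 were called higher and 4 lower, with a median of 1.37.

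For chaperones, translation factors and matrix genes calls higher in total RNA outnumbered those lower. Of 22 chaperones, 13 were called higher (59.1%, against 18.6% of all genes), among them Cct8 (1.93), Cct3 (1.82) and Cct5 (1.77) of the ring that folds actin and tubulin, and the co-chaperone Dnajb1 was the only one called lower (-1.54). Of 31 translation factors, 15 were called higher (48.4%), led by Eif3i (2.31), Eif3k (2.27) and Eif3l (2.05) of the scaffold that loads mRNA onto the small subunit. The 3 called lower were Eif1 (-3.13), Eif4a2 (-1.82) and Eif5 (-1.31), which act in start-site choice and cap-dependent scanning. Of 28 cytoskeleton and extracellular matrix genes, 13 were called higher (46.4%) and 14 were not called, with basement membrane genes Col4a1 (2.29), Hspg2 (1.82), Col4a2 (1.79) and Nid1 (1.72) at the top. Actg1, a cytoplasmic actin, was the only one called lower (-4.25), with 56.7% of its windows shared, while Actb was not called (0.65, SE 0.0345).

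**Figure D2:**
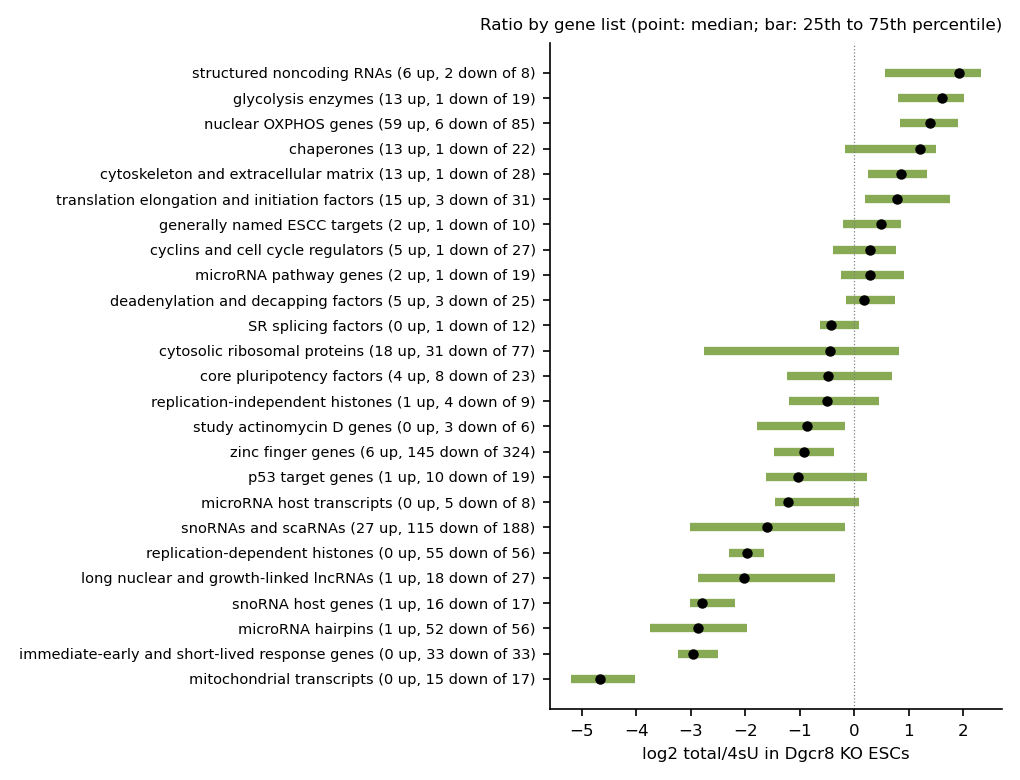
Median (point) and 25th to 75th percentile (bar) of log2 total/4sU in Dgcr8 KO ESCs for 25 gene lists; labels give the members called higher ("up") and lower ("down") of those tested. Structured noncoding RNAs, glycolysis and oxidative phosphorylation have the highest medians (1.92, 1.61 and 1.40), and mitochondrial transcripts the lowest (-4.68).

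Genes of rapid responses were short lived. All 33 immediate-early and response genes tested were called lower in total RNA, against 26.1% of all genes, and the 30 at 3 CPM in all 6 libraries had a median log2 ratio of -2.77. The median over the 33 was -2.97 (per same-numbered library the SD was 0.091). Fos, an AP-1 transcription factor (chr12:85473890-85477273, plus strand), had 88.3, 71.0 and 75.04 CPM in 4sU and 9.71, 6.74 and 6.36 CPM in total RNA, a log2 ratio of -3.34 (SE 0.154, limma adjusted p = 5.09e-16). Myc, a growth regulator, was low throughout, at 6.58, 8.85 and 7.27 CPM in 4sU and 0.339, 0.648 and 0.434 CPM in total RNA, which were between 3 and 5 counts, and its log2 ratio was -3.88 (SE 0.394). The libraries did not overlap for either gene, as for 85.7% of all genes. Myc passed the minimum only through the 4sU libraries, which fixed its direction. Others were Zfp36 (-3.69), whose protein binds AU-rich elements, the phosphatases Dusp1 (-3.52) and Dusp6 (-3.16), and Jun (-3.25). The smallest change was that of Mcl1, an anti-apoptotic gene, at -1.12 (SE 0.0534). The AU-rich heptamer was present in 20 of these 33 genes, up to 4 times, but the median was -2.89 with it and -2.97 without it.

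Pluripotency factors were spread over the whole range. Of 23 tested, 4 were called higher (17.4%) and 8 lower (34.8%), close to the 18.6% and 26.1% of all genes, with a median of -0.48. Pou5f1, which encodes Oct4 (chr17:35506018-35510772, plus strand), was the most stable, with 234.8, 222.1 and 213.1 CPM in 4sU and 977.1, 1002 and 1025 CPM in total RNA (log2 ratio 2.16, SE 0.0485). Klf5 (chr14:99298691-99313405, plus strand) was at the other end, with 276.8, 292.5 and 268.1 CPM in 4sU and 31.7, 31.4 and 27.2 CPM in total RNA (-3.21, SE 0.0765). The total and 4sU libraries did not overlap for either gene, and the ratios stood on opposite sides of 0. The other Krüppel-like factors Klf2 (-2.84) and Klf4 (-2.42), and Tbx3 (-2.15), Sox2 (-1.46), Fgf4 (-1.26), Esrrb (-1.22) and Nanog (-1.14) were also called lower. Dppa5a (1.82), Dppa4 (1.51) and the co-repressor Trim28 (1.34) were called higher.

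The 6 genes for which the study timed decay after actinomycin D, a transcription inhibitor, ran from Ccn1 (-3.12, SE 0.0657) through Amotl2 (-1.97, SE 0.0542), Esrrb, Sall4 (-0.51) and Pgap1 (-0.05) to Impact (0.99, SE 0.0548). Ccn1, a secreted matrix protein, had 779.3, 699.5 and 647.8 CPM in 4sU and 83.0, 81.0 and 79.1 CPM in total RNA. Impact had 151.2, 162.0 and 152.2 CPM in 4sU and 294.8, 311.1 and 317.4 CPM in total RNA. Both were without overlap, whereas Pgap1 overlapped, with 28.2 to 31.7 CPM in 4sU and 25.7 to 31.6 CPM in total RNA (limma adjusted p = 0.651). Impact lay just inside the limit, and without 4sU replicate 2 or total replicate 1 its ratio was 1.02 and it was called.

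Most p53 targets were called lower, and most cell cycle genes were not called. Of 19 p53 targets tested, 10 were called lower (52.6%, against 26.1%), from Gdf15 (-2.58), Cdkn1a (-2.32) and Bbc3 (-1.95) to Zmat3 (-1.04), and only Rrm2b, a ribonucleotide reductase subunit, was called higher (1.04, but 0.96 and not called without 4sU replicate 2). Of 27 cyclins and cell cycle regulators, 21 were not called (77.8%), 5 were called higher (18.5%, against 18.6%) and 1 lower (3.70%), and the difference between both lists was not tested. Bub1b (1.63) and Bub1 (1.52) of the spindle checkpoint, Cdc25b (1.38), Ccnb2 (1.30) and Cdk4 (1.25) were called higher, and the inhibitor Cdkn1a was the only one called lower.

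Histone genes divided by type. Replication-dependent histones, whose mRNAs end in a stem-loop and lack a poly(A) tail, were called lower in 55 of 56 genes, with a median of -1.97 (SD 0.048 per same-numbered library), or -1.95 for the 50 at 3 CPM in all 6 libraries. The median was lowest for H2A (-2.23 over 14 genes) and H3 (-2.10 over 11), near -2.01 for the 14 H2B genes and -1.79 for the 5 H1 genes, and highest for the 12 H4 genes (-1.40). Hist1h4h was the only one not called, at -0.76. Of these genes, 45 of 56 share 20% or more of their windows with another gene, and the 11 others were all called lower, with a median of -1.71. Of the 9 replication-independent histone genes, 4 were called lower and 1, H2afy, was called higher (1.73). Zinc finger genes, which are mostly transcriptional regulators, also leaned to the short-lived side: 145 of 324 were called lower (44.8%, against 26.1%) and 6 higher (1.85%, against 18.6%), with a median of -0.92. For the 296 at 3 CPM in all 6 libraries it was -0.87.

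Cytosolic ribosomal protein genes could not be read as a whole. Of 77, 18 were called higher and 31 lower, and the median was -0.45. For the 71 at 3 CPM in all 6 libraries, 18 were called higher and 25 lower, with a median of 0.04. However, 67 of the 77 shared 20% or more of their windows with another gene, as copies of these genes are common in the genome. The 10 genes under that limit had a median of 1.55, with 7 called higher, and the 67 others had a median of -0.82, with 11 higher and 31 lower. Across the 77 genes the ratio fell with the shared share (Spearman's rho -0.499, a description over genes). Rpl39 (1.94) and Rpl22 (1.88) were highest and Rps29 (-3.94, with 35.8% shared windows) and Rpl28 (-3.93) lowest. Rps29 passed the minimum only through the 4sU libraries, which fixed its direction. Over all tested genes the median was 0.07 for the 11295 genes under the limit and -0.44 for the 1861 at or above it.

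Most transcripts of the mitochondrial genome were far lower in total than in 4sU RNA. They took 4.69% to 5.67% of counts in the 4sU libraries and 0.768% to 0.791% in the total libraries. Of 7 mitochondrial mRNAs, all at 3 CPM in every library, 6 were called lower (median -4.07), with mt-Nd6 (-5.21), mt-Nd2 (-4.61) and mt-Cytb (-4.51) lowest and mt-Co1 (-0.67) not called. Of 10 mitochondrial tRNAs only mt-Tm was at 3 CPM in all 6 libraries, and it was not called (-0.53). The 9 others passed the minimum through the 4sU libraries, so that their lower total level (all were called) was fixed by that choice. Lars2 (chr9:123366927-123462664, plus strand), annotated as a mitochondrial leucyl-tRNA synthetase, was also lower in total RNA, with 43072, 40935 and 38590 CPM in 4sU and 27.6, 150.3 and 46.3 CPM in total RNA, a log2 ratio of -9.49 (SE 0.238). It took 4.04% to 4.38% of all 4sU counts, and total replicate 2 was higher than the other total libraries. The hairpin annotated as Mir6236 showed the same order of libraries, with 25636, 24034 and 23660 CPM in 4sU and 22.5, 97 and 31.7 CPM in total RNA (-9.24, SE 0.209). Depletion of ribosomal RNA is stated for the total RNA alone, and its part in these ratios was not tested.

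**Figure D3:**
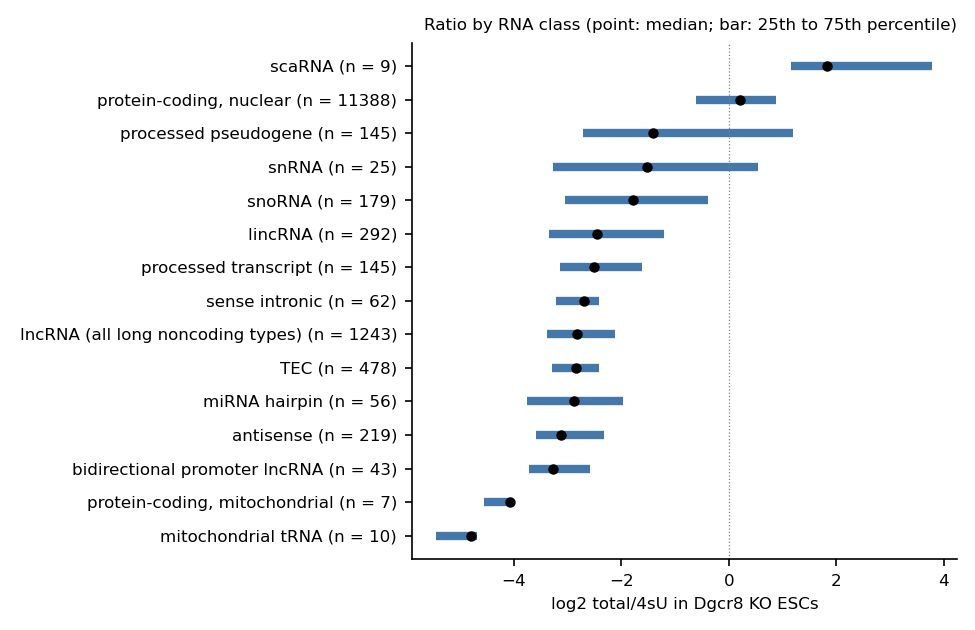
Median (point) and 25th to 75th percentile (bar) of log2 total/4sU for RNA classes of the annotation in Dgcr8 KO ESCs. Nuclear protein-coding genes have a median of 0.20, lncRNA types between -2.45 and -3.28, and small Cajal body RNAs 1.82.

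Most noncoding RNAs kept were lower in total RNA, although many passed the minimum only through the 4sU libraries, which fixed their direction. Of 1243 lncRNA genes, 1135 were called lower and 6 higher, with a median of -2.83, against 0.20 for 11388 nuclear protein-coding genes, and 98.0% lay below the protein-coding median. Per same-numbered library the medians differed by 2.72 ± 0.043 on the log2 scale, and the lncRNAs were lower in each (SD, n = 3). For the 272 lncRNAs at the minimum in every library the median was -1.76, with 190 called lower and 6 higher. Over all 1243 it was -2.78 for those inside and -2.92 for those outside the span of a protein-coding gene. Between types it ran from -2.45 for 292 lincRNAs and -2.51 for 145 processed transcripts to -3.12 for 219 antisense RNAs and -3.28 for 43 RNAs of bidirectional promoters.

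Long-studied lncRNAs differed among themselves. Of 27, 18 were called lower (66.7%, against 26.1% of all genes) and 1 higher (3.70%, against 18.6%). Dancr (chr5:74093060-74095406, plus strand) was lowest, with 148.4, 165.1 and 126.9 CPM in 4sU and 11.6, 11.4 and 11.4 CPM in total RNA (-3.66, SE 0.128). Neat1, the scaffold of paraspeckles, was at -2.42 (SE 0.0569), with 585.0 to 655.4 CPM in 4sU and 112.9 to 123.8 CPM in total RNA. Malat1, a nuclear speckle RNA, was above 0, with 4068, 4579 and 4455 CPM in 4sU and 5335, 5503 and 5531 CPM in total RNA (0.32, SE 0.0365). Hosts of small nucleolar RNAs (snoRNAs), which are spliced to release the snoRNA from an intron, were called lower in 16 of 17 genes (94.1%). For comparison, 1135 of all 1243 lncRNAs were called lower. The 16 included Snhg9 (-3.60), Snhg12 (-3.24) and Gas5 (-2.19), and Snhg14 was the exception (1.33). Of the 14 hosts at 3 CPM in all 6 libraries, 13 were called lower. Snhg9 passed the minimum only through the 4sU libraries, which fixed its direction.

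Small noncoding RNAs did not share a direction. Of 179 snoRNAs, which guide modification of ribosomal RNA, 114 were called lower and 20 higher (median -1.79), but 102 were at 3 CPM in all 6 libraries, and of these 51 were called lower and 13 higher. Of 9 small Cajal body RNAs 7 were called higher (median 1.82), and of the 6 at 3 CPM in every library 5 were (median 1.52). Scarna6 (chr1:87784556-87784820, plus strand) had 3.50, 2.16 and 2.55 CPM in 4sU and 54.2, 48.3 and 44.7 CPM in total RNA (4.15, SE 0.257). Its 4sU level rested on 17, 11 and 13 counts and was not at 3 CPM in every 4sU library. The snoRNA gene Gm25500 had at most 2 counts in any total library, so that total was at least 10.3-fold lower than 4sU, taken against a floor of 3 counts per library. Gm25500 passed the minimum only through the 4sU libraries, which fixed its direction, and 100% of its windows are shared with other genes. Most of the 188 snoRNA and small Cajal body genes lie within other genes or have copies: 106 share 20% or more of their windows, with a median of -2.36 against -0.68 for the 82 others. Among 8 genes listed as structured RNAs, a list that also holds Lars2, 6 were called higher, among them Rny3 (2.77), Rmrp (2.35), Rpph1 (2.34) and Rn7sk (2.09), which act in Y RNA particles, RNase MRP, RNase P and transcription control.

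Primary microRNA transcripts remained visible in the null cells. Of 56 hairpin genes tested, 52 were called lower and 1, Mir703, higher (1.85), with a median of -2.88. Only 13 were at 3 CPM in all 6 libraries, with 11 called lower and a median of -2.11, and most others passed through the 4sU libraries, which fixed their direction. A 50-base read over a hairpin gene reports the precursor or its host transcript and not the mature microRNA. The miR-302 cluster, on chromosome 3, was lowest of the ESCC clusters, with Mir302d at -4.67, Mir302b at -4.38 and Mir302a at -4.13. The miR-290 cluster, on chromosome 7, lay between -2.24 (Mir291a) and -1.99 (Mir294). Relative to protein-coding genes, the hairpin median over 37 genes kept in both genotypes was -2.74 ± 0.224 in KO and -3.45 ± 0.054 in wild-type ESCs (SD, n = 3 each; exact permutation p = 0.1, or 0.375 adjusted over 15 classes). Of 8 host transcripts, 5 were called lower, from Mir124a-1hg (-3.08) to Dleu2 (-1.16), and Meg3 (0.02), Mirg (0.32) and Rian (0.54), which derive from the imprinted Dlk1-Dio3 region, were not called.

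Most genes of the machinery that removes RNA or carries out microRNA repression were not called, where 44.7% of all genes were called. Of 25 deadenylation and decapping genes, 5 were called higher (20%, close to the 18.6% of all genes) and 3 lower (12%, against 26.1%). The other 17 were not called. Pan2 (1.56), Edc4 (1.40), Cnot10 (1.34), the nuclease Xrn2 (1.28) and the scaffold Cnot1 (1.21) were called higher, and Tob1 (-2.43), Edc3 (-1.56) and Tob2 (-1.49) lower. Ddx6, a helicase that links decapping to repression, was at -0.27. Of 19 microRNA pathway genes, Prkra (2.21) and the exporter Xpo5 (1.18) were called higher and Dgcr8 lower, and Drosha (0.71), Dicer1 (0.95), Ago1 (0.95), Ago2 (-0.30) and Tnrc6a (0.29) were not called. Of 12 SR splicing factors only Srsf2 was called (-1.42).

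The ratio varied with transcript structure across 11361 protein-coding genes, where each gene was represented by 1 annotated transcript. Exon number had the largest correlation of 13 features (Spearman's rho 0.463). The median log2 ratio was -1.74 for 309 genes with 1 exon, -0.61 for 2840 genes with 2 to 5, 0.23 for 3309 genes with 6 to 10, 0.51 for 3313 genes with 11 to 20 and 0.78 for 1590 genes with more. The share called lower fell over these bins from 79.3% to 3.08%. Intron share of the gene span (0.329) and coding length (0.153) were positive, and coding GC (-0.215), 3′ UTR length (-0.167), 5′ UTR length (-0.138) and the number of upstream ATGs (-0.115) were negative. By 3′ UTR length the median fell from 0.55 for up to 250 bases to -0.02 for more than 4000. By the number of AU-rich heptamers it fell from 0.27 with none to -0.13 with 3 or more. These correlations are across genes, which share libraries and base composition and are not replicates, so no p is given. A linear model of 10 features took up 33.3% of the variance of the ratio over 11029 genes, and it lost 18.5 percentage points without exon number, 3.79 without coding length, 0.309 without AU-rich heptamers and 0.0153 without ESCC sites.

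**Figure D4:**
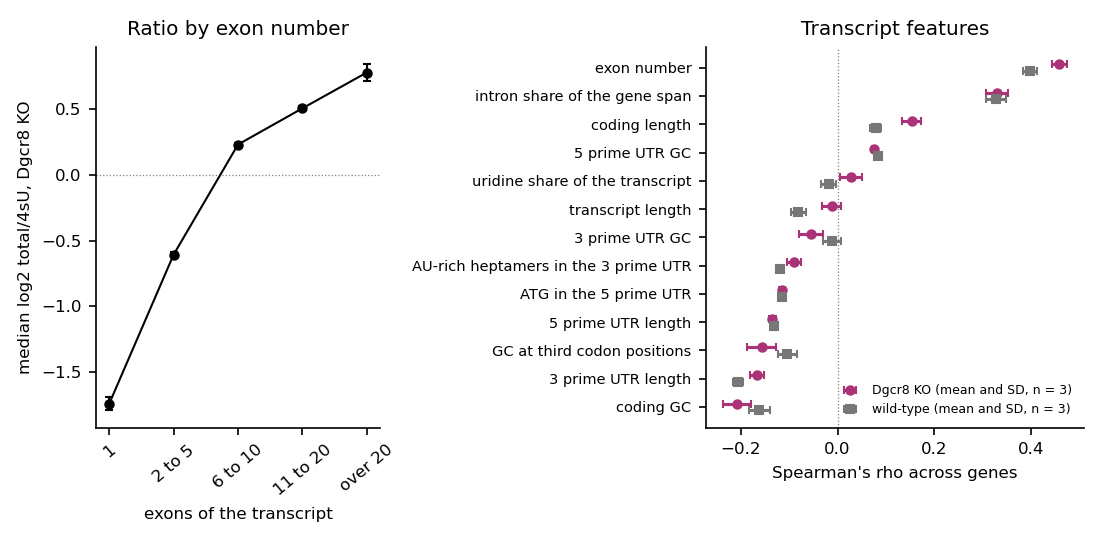
Left, median log2 total/4sU in Dgcr8 KO ESCs by exon number of the transcript (error bars: SD of the medians over 3 same-numbered libraries). Right, Spearman's rho of the ratio with 13 transcript features in KO and wild-type ESCs (mean and SD, n = 3); exon number is highest in both, at 0.458 in KO and 0.398 in wild-type.

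Some of these relations had other sizes in wild-type ESCs when the same genes were used. With exon number rho was 0.458 ± 0.015 in KO and 0.398 ± 0.014 in wild-type, with coding length 0.153 ± 0.019 and 0.079 ± 0.011, and with 3′ UTR length -0.166 ± 0.015 and -0.206 ± 0.010 (SD, n = 3 each). KO and wild-type values did not overlap for these 3 features, which gives the smallest exact permutation p of 0.1 for each. Adjusted over the 13 features this was 0.13, so the design could not take any of them past 0.05. The same held for all other features of the 13 except 5′ UTR length, the number of upstream ATGs and intron share. Lack of overlap was therefore not particular to the 3 features named. For 5′ UTR length and upstream ATGs the exact permutation p was 0.3 and 0.8 (n = 3 each). Intron share was 0.330 ± 0.023 and 0.327 ± 0.020 (exact permutation p = 0.9, n = 3 each).

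Presence of a site for the ESCC seed had a slope near 0 in the null cells once UTR length was taken into account. Of 11024 genes with a 3′ UTR of at least 50 bases, 2167 (19.7%) held AGCACTT or GCACTTA. Their median ratio was 0.07, against 0.27 for genes without the hexamer GCACTT, and their 3′ UTRs had a median length of 2318 bases, against 700.0 bases. With 3′ UTR length and GC as covariates, the slope on presence of a site was 0.0040 on the log2 scale. Over genes kept in both genotypes it was 0.0023 ± 0.0055 in KO and -0.183 ± 0.0023 in wild-type ESCs (mean ± SD of 3 libraries), without overlap (exact permutation p = 0.1, or 0.1375 adjusted over 11 motifs). For AGCACTTA the slopes were 0.00047 ± 0.00072 and -0.270 ± 0.011 (SD, n = 3 each).

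Of 3 elements read by proteins, 2 had a negative slope in the null cells. For the AU-rich heptamer, present in 3161 genes (28.7%), it was -0.095 ± 0.010 in KO and -0.105 ± 0.006 in wild-type ESCs (mean ± SD of 3 libraries; exact permutation p = 0.2). For the Pumilio motif TGTANATA, in 2801 genes (25.4%), it was -0.057 ± 0.010 and -0.100 ± 0.009 (SD, n = 3 each), without overlap, and the KO slope of -0.049 over all genes kept was -0.015 with no filter on low counts. For the GU-rich element TGTTTGT, in 3038 genes (27.6%), it was 0.027 ± 0.002 in KO and 0.004 ± 0.010 in wild-type ESCs (exact permutation p = 0.1, n = 3 each). For seeds of other families in ESCs the slopes in KO were 0.011 for let-7 (CTACCTC, 9.82% of genes), 0.072 for miR-25/92 (GTGCAAT, 7.01%), 0.092 for miR-26 (TACTTGA, 10.96%) and 0.052 for miR-130 (TTGCACT, 10.97%). The motif GCTGCTG (22.3% of genes), read for miR-15, had a slope of 0.071 in KO. GCTGCTG is not the full match to the miR-15 seed, so that slope does not measure sites of this family. The let-7 slope took either sign, with -0.008 ± 0.011 over genes kept in both genotypes (SD, n = 3) and -0.015 over genes at 3 CPM in all 6 libraries. The miR-130 slope was 0.042 ± 0.010 in KO and -0.035 ± 0.007 in wild-type ESCs (mean ± SD of 3 libraries); its motif overlaps the GCACT core of the ESCC sites.

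Over all hexamers the ESCC seed match had the highest slope in KO relative to wild-type. Of 4088 hexamers held by at least 100 genes, the 1st and 99th percentile of the slope in KO were -0.214 and 0.104, and the slopes of both genotypes had a Spearman correlation of 0.954. The lowest in KO were GC-rich with CpG, such as GCGCGG (-0.51 over 238 genes) and CGGCGA (-0.48 over 159 genes), and the highest were ACTACG (0.18), TAACTA (0.15) and ATCACT (0.15), with the polyadenylation signal AATAAA (0.15 over 8834 genes) next. The match GCACTT was 61st from the lowest in wild-type (-0.157 ± 0.0023) and 2217th of 4088 in KO (0.0031 ± 0.0048, SD, n = 3 each). Its difference of 0.160 was the highest of all hexamers, followed by the overlapping AGCACT (0.087) and CACTTA (0.085).

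**Figure D5:**
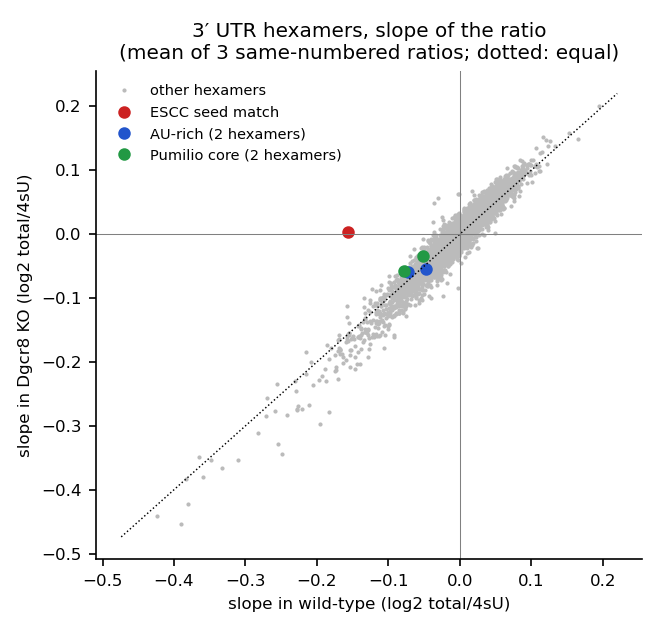
Slope of log2 total/4sU on presence of each hexamer in the 3′ UTR, in wild-type (x axis) and Dgcr8 KO (y axis) ESCs, as the mean of 3 same-numbered ratios; the dotted line marks equal slopes. Most of 4088 hexamers follow the line, the ESCC seed match lies at -0.157 in wild-type and 0.003 in KO, and the AU-rich and Pumilio core hexamers are below 0 in both.

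The 10 genes generally named as ESCC targets, all with at least 1 site, were not alike in the null cells: Rhoc (1.60) and Lefty2 (1.51) were called higher, Cdkn1a (-2.32) lower, and the 7 others lay between -0.47 and 0.92. Their median was 0.50. Rbl2, a retinoblastoma-like repressor, had 56.0, 55.2 and 56.8 CPM in 4sU and 104.7, 103.6 and 110.5 CPM in total RNA (0.92, SE 0.0703). Casp2, a caspase, had 138.1, 135.3 and 128.3 CPM in 4sU and 97, 91.6 and 102.5 CPM in total RNA (-0.47, SE 0.063). Cdkn1a, an inhibitor of cyclin-dependent kinases, had 570.8, 576.0 and 552.0 CPM in 4sU and 106.8, 112.7 and 120.7 CPM in total RNA. The libraries did not overlap for Rbl2, Casp2 or Cdkn1a, as for 85.7% of all genes, whereas they did for Tgfbr2. Cdkn1a was short lived also in cells without the family.

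The test of the difference between KO and wild-type called 247 of 14033 genes (1.76%), 111 with a higher ratio in KO (0.791%) and 136 with a lower one (0.969%). Of the 10 ESCC genes, 3 were called, all higher in KO: Casp2 by 1.48 (SE 0.0933, limma adjusted p = 4.70e-13), Rbl2 by 1.43 (SE 0.129) and Lefty1 by 1.34 (SE 0.127). Their wild-type log2 ratios were -1.91, -0.47 and -0.60. Cdkn1a (0.92) and Lats2 (0.96) were just under the limit and were called with RLE scaling (1.01 and 1.05), Lats2 also without total replicate 3 (1.04), and Rhoc (-0.04, SE 0.231) and Lefty2 (0.23, SE 0.106) were not called. Tgfbr2 (1.13, SE 0.415, limma adjusted p = 0.061) was not called, but was without 4sU or total replicate 3 (1.28 and 1.30), and it had only 3.62 to 6.87 CPM in the KO libraries.

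Transcripts that carry microRNAs were among the largest differences. Mirg and Mir17hg are given because they were among the 4 largest called rises at 3 CPM in all 12 libraries. Of 13 host transcripts in that test 5 were called higher in KO, and of 70 hairpin genes 15 were called higher and 1 lower. Mirg had 103.1, 92 and 88.4 CPM in KO 4sU and 119.2, 118.3 and 116.0 CPM in KO total RNA, and its log2 ratio of 0.32 was 2.48 above that of wild-type (SE 0.104, limma adjusted p = 1.73e-17). Mir17hg, the host of the miR-17 cluster, had 537.1, 496.4 and 427.0 CPM in 4sU and 218.6, 191.9 and 189.6 CPM in total RNA, with a difference of 1.97 (SE 0.135). Pooled, 322 genes of oxidative phosphorylation, glycolysis, translation factors, chaperones, ribosomal proteins, pluripotency factors and histones held 0 calls for a difference with limma and 0 with edgeR. Each of these lists held 0 limma calls by itself, so the pooled limma count followed from their choice. Of the 322, 130 had an unadjusted limma p under 0.05, and the share of all genes under it was not counted. Other lists held calls: of 34 immediate-early and response genes, 4 were called lower in KO and 0 higher. Of 199 snoRNA and small Cajal body genes, 0 were called lower and 7 higher. Among all genes 16.1% passed the adjusted p alone, with Nanog (-0.34, SE 0.063) as an example.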

How the data were processed

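The table the authors deposited gave raw counts of reads for each gene. Per the labels and the study's methods, the authors trimmed single-end 50-base reads with cutadapt 1.14, mapped them uniquely to mm10 with STAR 2.5.3a and counted them with featureCounts 1.5.3 (strand setting 2) against GENCODE M14 without rRNA genes. For 4sU libraries 80 ug of RNA was biotinylated and captured; rRNA depletion is stated for total RNA. Unique mapping under-counts near-identical copies, so 50-base windows shared with other genes' transcripts (GENCODE M21, which matched 51274 genes) were counted, with a limit of 20%. Windows were matched on either strand, and those shared by genes that overlap at the same place were not told apart from copies elsewhere. The 92 ERCC rows held 1 count in all.

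Counts of the 6 KO libraries were scaled by TMM (edgeR 4.0.16) and fitted with voom weights in limma 3.58.1 (R 4.3.3), with Benjamini-Hochberg adjustment over all tested genes. A call needed an adjusted p under 0.05 and a log2 change over 1. Differences from wild-type came from the interaction term over 12 libraries. Values per same-numbered library used log2 CPM with a prior count of 2. Sites were read from 1 transcript per gene, with the longest coding region. Counting error alone is covered by the floor of 3 counts. The edgeR quasi-likelihood test, DESeq2 1.42.0, limma-trend, other scalings and filters, a replicate block and leaving out each library were alternatives. Scripts were tested on simulated counts.

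The genes named were Dgcr8, the actinomycin D genes, ESCC genes and 10 fixed genes, the 8 highest and 8 lowest protein-coding and 4 highest and 4 lowest lncRNA genes called at 3 CPM in all libraries without overlap, the extremes of each list, and the 4 largest differences each way at 3 CPM in all 12 libraries. Other list members were named after their values were seen. A gene that the rule named is not reported here. Members and lists were chosen with earlier results of these data known. The authors' tables of comparisons were not used.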

Additional observations from a re-analysis of the deposited data

Results flagged for a closer look

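In 12 named genes the total/4sU ratio differed between Dgcr8 KO and wild-type ESCs by the interaction test (limma, adjusted p under 0.05 and a log2 difference over 1). Mirg, 9530068E07Rik, Mir17hg, Zfp367, Socs3, Gng7, Clgn and Pard6a were named as the largest called differences of this test, which fixed their call. The ratio of Dgcr8 was lower in KO by a log2 difference of -1.09 (SE 0.116). Of genes with ESCC sites, Casp2 (1.48), Rbl2 (1.43), Lefty1 (1.34), the protein-coding gene 9530068E07Rik (1.99) and the zinc finger gene Zfp367 (1.72) were higher in KO. The microRNA hosts Mirg (2.48) and Mir17hg (1.97) were higher too.

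Those lower in KO were Socs3 (-1.80), a feedback inhibitor of LIF signalling, Gng7 (-1.68), a G protein subunit, Clgn (-1.62), a chaperone of the endoplasmic reticulum, and the polarity gene Pard6a (-1.52). Socs3 had 700.0, 562.8 and 568.1 CPM in KO 4sU and 97.8, 89.1 and 88.5 CPM in KO total libraries, a log2 ratio of -2.72 against -0.88 in wild-type. Gng7 (4.28 to 5.76 CPM) and Pard6a (3.47 to 4.63 CPM) were low in the KO total libraries. A 3′ UTR site for the ESCC seed is also present in Gng7 and Clgn. Groups of 3 libraries were not searched for single libraries that stand apart.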

How the results depend on the processing

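In the main fits the same-numbered libraries were not taken as pairs, whereas SDs and permutation tests per same-numbered library matched them by number. The study's methods say that labelled samples were split after RNA extraction. The labels do not say whether a shared number marks the same split sample. Deviations from the group means correlated at 0.0259, 0.0781 and 0.0869 for numbers 1, 2 and 3, although every library correlated best with its own number. A fit with a replicate block called 5868 genes (2423 higher and 3445 lower), against 5893 without it, and 262 differences (124 higher and 138 lower), against 247; Tgfbr2 was then called for a difference (1.19).

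The filter and the limit on the change moved the counts most: 3779 calls (2137 lower) with 3 CPM in all 6 libraries, 10807 (3898 higher, 6909 lower) with no filter, and 11223 (5637 higher, 5586 lower) with no limit. Differences fell to 115 (61 higher, 54 lower) with 3 CPM in all 12 libraries, and those lower to 90 with RLE scaling. edgeR called 5891 genes, of which 5873 were shared. The fold between the 25th and 75th percentile was 2.72 (3 CPM in all 6), 3.77 (no filter), 3.37 (under 20% shared windows, chosen after seeing the data) and 2.60 (genes over the median level). Between the 1st and 99th it was 36.7, 68.9 and 34.2 with the first, second and last of these, and 77.2 to 84.7 leaving out 1 replicate number. In that order of 3 CPM in all 6 and no filter, the lncRNA difference was -2.02 and -1.68, the ESCC slope -0.0073 and 0.0369, the median of ribosomal proteins -0.160 and -0.222 (1.55 under 20% shared windows) and of oxidative phosphorylation 1.20 and 1.63. Exon number had rho 0.443 with 3 CPM in all 6 and 0.435 without histone, zinc finger and immediate-early lists. For 3′ UTR length rho was -0.184, -0.0761, -0.195 and -0.218 with 3 CPM in all 6, no filter, under 20% shared windows and genes over the median level. With no filter the AU-rich slope was -0.0594 and the immediate-early median -2.74 (-2.94 to -2.79 leaving out 1 number).

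Of 1526 values for named genes, 1502 kept direction and call, and of 249 differences 238 did. Those that reversed were Pgap1 (0.17 with no filter, -0.13 to 0.031 leaving out 1 library), Tgfbr2 (-0.034 by library size, -0.16 with upper-quartile scaling, -0.13 with 3 CPM in all 6, -0.18 to 0.24 leaving out 1 library), and the differences of Pgap1 (-0.012 to 0.15 leaving out 1 library) and Rhoc (0.048 with RLE scaling, -0.14 to 0.079 leaving out 1 library). Clgn was not called without total replicate 1 (-0.81). The median of all genes was -0.21 with upper-quartile scaling, -0.09 by library size and -0.40 with no filter. Of 175 list medians 66 moved by more than the replicate SD and 2 changed sign. Causes were not tested beyond the construction of each setting. Depth left fewer than 28 counts behind 3 CPM, so ratios of genes near the minimum rest on few counts.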
